A study of Homo sapiens with 15 samples.

Results

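The nuclear receptors are a family of transcription factors, and 46 of their human genes were chosen by symbol from a list of the family and followed through 2 RNA-sequencing experiments in K562 cells. K562 is a BCR-ABL1+ chronic myeloid leukemia line with erythroid features. All 46 genes had a row among the 60510 genes of the inhibitor resistance experiment, where 28 were expressed highly enough to be tested, and 25 were among the 17769 genes of the knockout experiment, where all 25 were tested. A gene was tested when its log2 CPM (read counts scaled to library depth, on a log2 scale) was -1 or more in at least 3 libraries. The list held 5 steroid receptors (NR3C1, NR3C2, PGR, ESR1 and ESR2), whose proteins are textbook clients of the chaperone HSP90, and 41 other receptors.

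The experiments asked what the loss of 1 of the 2 cytosolic HSP90 isoforms, or acquired resistance to an HSP90 inhibitor, does to the transcriptome of these leukemia cells. In the knockout experiment, empty vector cells (EV, genotype given as WT), cells with a CRISPR-Cas9 knockout of HSP90AA1 (HSP90α-KO) and cells with a knockout of HSP90AB1 (HSP90β-KO) had 3 libraries each; by the labels every group, EV included, carried Cas9 and a lentiviral guide RNA vector with a fluorescence marker, was sorted for the marker and was monoclonally selected. In the resistance experiment, parental cells kept in the solvent DMSO and PUHr cells, which were clones selected over many months of rising doses of PU-H71 (PUH71 in the labels, an inhibitor that binds the N-terminal domain of HSP90), had 3 libraries each. The labels do not say how many clones stand behind the 3 libraries of a group, so differences between clones and effects of the genotype or the drug cannot be told apart, and the p-values measure the spread between these libraries, which may be technical.

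Nuclear receptors bind DNA through a conserved zinc finger domain, and most carry a pocket for a small lipophilic ligand such as a steroid, a retinoid, thyroid hormone, vitamin D or a fatty acid. Steroid receptors without hormone are held by HSP90 and its co-chaperones, which keep the pocket able to bind, and the glucocorticoid receptor waits in that complex in the cytoplasm. Receptors for retinoids, thyroid hormone and vitamin D mostly sit on DNA as partners of a retinoid X receptor, and orphan receptors have no known or no required ligand. In erythroid cells the glucocorticoid receptor is known for keeping progenitors dividing under stress, and the testicular receptors NR2C1 and NR2C2 for silencing embryonic and fetal globin genes. The libraries measure mRNA alone, so the amount and folding of the receptor proteins were not measured, and in bulk RNA a smaller share of expressing cells and less RNA per cell cannot be told apart.

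The targeted genes were checked first. HSP90AA1 had 704 ± 18.7 CPM (SD, n = 3) in EV and 90.4 ± 2.34 CPM in HSP90α-KO cells (log2 fold change -2.96, adjusted p = 2.6e-30), whereas HSP90AB1 fell from 2806 CPM in EV to 1910 CPM in HSP90β-KO cells (-0.55, adjusted p = 1.3e-15), so many of its transcripts remained. RNA alone does not show whether the protein was lost. HSP90AA1 was higher in HSP90β-KO than in EV (log2 fold change 0.78). Library depth was 19594381 to 26216730 reads, and 1 read was worth 0.0381 to 0.0518 CPM. The summed level of 10 K562 markers was 1298 to 1327 CPM in EV, 1220 to 1284 CPM in HSP90α-KO and 1238 to 1254 CPM in HSP90β-KO libraries, and that of 11 markers was 3212 to 3271 CPM in parental and 2520 to 2617 CPM in PUHr libraries. Markers of T cells, B cells, fibroblasts and epithelium summed to 258 to 272, 258 to 273 and 268 to 274 CPM over 7 listed genes in EV, HSP90α-KO and HSP90β-KO, and to 324 to 339 and 372 to 403 CPM over 12 genes in parental and PUHr, where CD2, CDH1 and MS4A1 had at most 3 reads in every library. In the knockout experiment most of each sum came from 1 gene, the epithelial marker KRT18. It had 3738 to 4882 reads in EV and 3511 to 3946 in HSP90α-KO libraries. These steady sums therefore say little about the markers of T cells, B cells and fibroblasts. Single markers of other cells moved more than the sums, with CD3E lower in HSP90α-KO (-2.85) and CD3D higher in HSP90β-KO (1.26). COL1A2 (-4.63) and EPCAM (-1.50) were lower in PUHr. In PUHr 6 of 7 tested passed the adjusted p, 2 higher and 4 lower, beside 51.4% of all tested genes (25.6% higher and 25.8% lower). The part of these marker differences in the receptor results was not tested.

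Changed receptor genes were counted in each comparison and set beside all tested genes. A gene is called changed at a limma adjusted p under 0.05 (Benjamini-Hochberg over all genes tested in its table) together with a log2 fold change beyond 1. In HSP90α-KO against EV, 2 of 25 tested receptor genes rose (VDR and NR4A1) and 2 fell (NR3C1 and ESRRB), beside 10.3% of all 17039 tested genes changed (5.32% higher and 5.01% lower). In HSP90β-KO against EV, 1 rose (ESRRB) and 1 fell (VDR), beside 4.48% of all tested genes (1.83% higher and 2.65% lower). PUHr cells against parental cells gave 1 higher gene (NR2F2) and 2 lower genes (NR3C1 and PGR) of 28, beside 10.1% of 16503 tested genes (5.37% higher and 4.69% lower). Between the knockouts, 2 receptor genes were higher in HSP90α-KO than in HSP90β-KO (VDR and NR4A1) and 3 lower (NR3C1, ESRRB and NR2F2), beside 12.7% of all tested genes (7.14% higher and 5.57% lower). By adjusted p alone 15, 9 and 14 receptor genes passed in HSP90α-KO, HSP90β-KO and PUHr, beside 54.2%, 34.4% and 51.4% of all tested genes, and 17 between the knockouts, beside 59.9%. The libraries of the 2 groups did not overlap for 14 of 25, 15 of 25 and 15 of 28 receptor genes, beside 57.3%, 46.6% and 58.5% of all tested genes, and for 18 of 25 between the knockouts, beside 63.8%. Read against these backgrounds, the counts are small numbers of genes near the level of the transcriptome, and the rest of the description turns on which receptors they were. The median log2 fold change over the tested receptor genes was 0.04, 0.00 and 0.04 in the 3 comparisons, beside -0.01, 0.00 and 0.00 over all tested genes, and the median absolute change was 0.27, 0.14 and 0.28, beside 0.24, 0.15 and 0.21. Both knockout comparisons use the same EV libraries. The plot of fold changes by role shows the whole family.

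**Figure D1:**
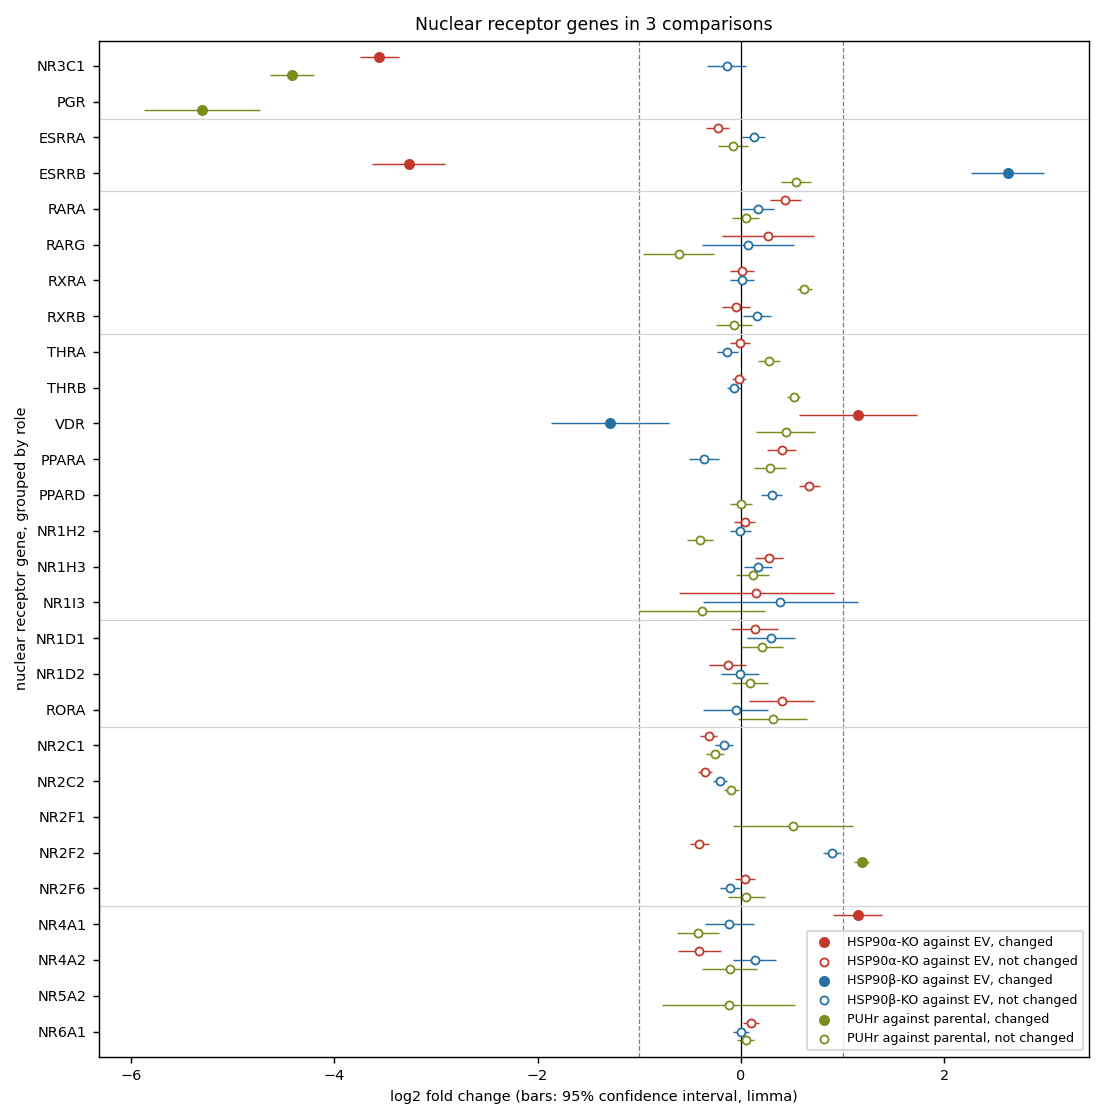
Log2 fold change of 28 tested nuclear receptor genes, grouped by role, in HSP90α-KO against EV, HSP90β-KO against EV and PUHr against parental cells; bars are 95% confidence intervals from limma and filled points mark changed genes. Most points lie within 0.5 of 0 (20 of 25 in HSP90α-KO, 22 of 25 in HSP90β-KO), while NR3C1, PGR and ESRRB reach beyond 2.

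The steroid receptors stood as follows. NR3C1 (ENSG00000113580, chr5:143277931-143435512, minus strand, GRCh38) encodes the glucocorticoid receptor, and it had the most reads of the 5 listed steroid receptors, a list that does not hold the whole class. Its level was 23.9, 23.0 and 21.7 CPM in the EV libraries, 2.15, 1.66 and 1.80 CPM in the HSP90α-KO libraries, and 19.2, 22.4 and 20.6 CPM in the HSP90β-KO libraries. All HSP90α-KO libraries lay far below both other groups, and the HSP90β-KO libraries overlapped EV. The mean in HSP90α-KO was 12.2-fold lower than in EV (log2 fold change -3.56, SE 0.094, 95% interval -3.75 to -3.36, limma adjusted p = 3.2e-21). HSP90β-KO gave -0.14 (SE 0.094, interval -0.34 to 0.05, adjusted p = 0.26). The direct comparison of the knockouts gave -3.41 (adjusted p = 3.7e-21), an 11.1-fold lower mean in HSP90α-KO.

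NR3C1 was low again in the cells resistant to the inhibitor, an experiment that shares no library with the knockouts. Parental libraries had 28.4, 27.2 and 26.7 CPM, from 672, 648 and 570 reads. PUHr libraries had 1.08, 1.30 and 1.25 CPM, from 27, 31 and 28 reads. The groups did not overlap, and the fall was 22.7-fold in mean CPM (log2 fold change -4.41, SE 0.10, interval -4.63 to -4.20, adjusted p = 1.2e-13). HSP90AA1 mRNA gave -0.13 there, and protein was not measured in these libraries. For PUHr cells the paper reports a gain in copy number and a missense variant of HSP90AA1, and raised HSP90α protein. The 2 tables were normalised separately, so the residual 1.87 ± 0.253 CPM in HSP90α-KO and 1.21 ± 0.111 CPM in PUHr are given side by side without a test.

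PGR (ENSG00000082175, chr11:101029624-101129813, minus strand) encodes the progesterone receptor. It was low but clearly present in parental cells, at 4.06, 3.90 and 3.33 CPM from 96, 93 and 71 reads. PUHr libraries held 1, 0 and 0 reads. The groups did not overlap, and over the group 260 reads in parental stood against 1 in PUHr, a ratio in CPM of 269 with an exact 95% Clopper-Pearson interval of 47.9 to 10679 that covers counting error only. The limma value of -5.30 (SE 0.265, adjusted p = 4.4e-10) depends on the prior count that the authors added to the reads. PGR passed the filter through the parental libraries alone, so a difference was built into its being tested, and it was not listed in the knockout table. The antisense gene PGR-AS1 had 0 to 4 reads in parental and 0 in PUHr libraries.

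The other 3 listed steroid receptors were near the detection limit and were tested nowhere. NR3C2, the mineralocorticoid receptor, had 5, 4 and 4 reads in parental and 2, 0 and 5 in PUHr libraries. ESR1, estrogen receptor alpha, had 1, 1 and 3 against 1, 0 and 0 reads. ESR2, estrogen receptor beta, had 1, 0 and 0 reads against 0 in all PUHr libraries. No difference between the groups was detectable at this depth, and none of the 3 was listed in the knockout table. Set against each other, NR3C1 was the 1 steroid receptor tested in the knockouts, lower in HSP90α-KO and not in HSP90β-KO, and in PUHr it was the 1 steroid receptor tested without regard to its fall, since PGR was tested through the parental libraries alone. The other receptors gave 2 higher and 1 lower of 24 in HSP90α-KO, 1 higher and 1 lower of 24 in HSP90β-KO, and 1 higher and 0 lower of 26 in PUHr. By adjusted p alone, the other receptors split into 8 higher and 6 lower, 4 higher and 5 lower, and 7 higher and 5 lower, beside 27.5% higher and 26.6% lower, 17.2% and 17.2%, and 25.6% and 25.8% of all tested genes. With so few tested steroid receptors a comparison of the classes rests on single genes, and no test of the classes was made.

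Both steroid receptor genes that fell are shown by the promoter that RefSeq annotates, since their RNA levels are the ones the comparison turns on. The windows run 250 bases before to 50 bases after a start site in GRCh38.p14, written 5′ to 3′ on the gene's own strand, and capitals mark the GC box GGGCGG or its complement CCGCCC and the TATA motif TATAAA or its complement TTTATA. The NR3C1 window is chr5:143404433-143404732 on the minus strand, and the PGR window is chr11:101129028-101129327 on the minus strand; both starts lie inside the annotated gene span.
NR3C1: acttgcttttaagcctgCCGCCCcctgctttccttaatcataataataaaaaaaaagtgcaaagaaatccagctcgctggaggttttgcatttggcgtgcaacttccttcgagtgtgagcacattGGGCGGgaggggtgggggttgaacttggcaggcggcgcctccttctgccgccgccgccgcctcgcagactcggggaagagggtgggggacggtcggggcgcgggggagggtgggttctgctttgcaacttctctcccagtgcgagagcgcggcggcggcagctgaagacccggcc
PGR: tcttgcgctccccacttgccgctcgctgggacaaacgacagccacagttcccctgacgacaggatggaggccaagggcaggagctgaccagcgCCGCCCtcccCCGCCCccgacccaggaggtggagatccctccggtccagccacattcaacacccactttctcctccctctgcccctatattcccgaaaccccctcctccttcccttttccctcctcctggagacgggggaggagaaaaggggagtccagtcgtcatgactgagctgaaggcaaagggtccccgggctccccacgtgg
Both windows are rich in G and C (61.0% and 64.3%, against a median of 58.7% over 35116 promoters), and they hold 23 and 15 CpG dinucleotides, against a median of 14. Each holds 2 GC boxes, beginning at positions -233 and -125 of NR3C1 and -157 and -147 of PGR relative to the start, and a GC box on either strand occurs in 45% of all promoters. NR3C1 also holds 1 CCAAT box (CCAAT or ATTGG), found in 34.6% of promoters. Neither window holds the receptor half-sites AGGTCA (13.8% of promoters) or AGAACA (14.8%) on either strand, or the heat shock core GAANNTTC (6.77%), which says only that these letters are not in these windows.

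The estrogen-related receptors are orphans that bind DNA constitutively and drive mitochondrial and, in stem cells, pluripotency genes. ESRRB (ENSG00000119715, chr14:76310712-76501837, plus strand) moved in opposite directions in the knockouts. It had 3.19, 2.84 and 2.52 CPM in EV, 0.195, 0.311 and 0.154 CPM in HSP90α-KO (6 reads at most), and 17.1, 19.0 and 17.6 CPM in HSP90β-KO. None of the 3 groups overlapped another. Against EV the mean was 12.9-fold lower in HSP90α-KO (log2 fold change -3.27, SE 0.176, interval -3.63 to -2.91, adjusted p = 1.1e-14) and 6.29-fold higher in HSP90β-KO (2.62, SE 0.176, interval 2.26 to 2.98, adjusted p = 3.5e-12). Between the knockouts the difference was 81.5-fold (-5.89, adjusted p = 2.2e-20), and with 5 CPM added before the log the value in HSP90α-KO against EV shrank to -0.59. ESRRB passed the filter through the EV and HSP90β-KO libraries. Parental libraries had 11.5, 11.0 and 10.3 CPM and PUHr libraries 16.3, 16.1 and 15.4 CPM, which did not overlap and gave 0.54 (SE 0.068, adjusted p = 1.0e-05), under the fold threshold.

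Its RefSeq promoter, chr14:76310527-76310826 on the plus strand, is shown because it differs in make-up from those of the steroid receptors that fell.
ESRRB: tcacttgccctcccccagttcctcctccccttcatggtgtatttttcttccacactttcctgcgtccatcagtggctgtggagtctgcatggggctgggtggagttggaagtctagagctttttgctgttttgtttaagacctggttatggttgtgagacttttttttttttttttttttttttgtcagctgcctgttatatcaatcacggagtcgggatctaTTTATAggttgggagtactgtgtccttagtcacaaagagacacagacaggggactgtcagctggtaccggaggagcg
The window has 46.7% G and C, 5 CpG dinucleotides and no GC box, and it holds 1 match to the TATA motif, as the complement TTTATA beginning at position -27. The motif is found on either strand in 11.5% of promoters. It holds no receptor half-site, CCAAT box or heat shock core as spelled above. ESRRA, which works with PGC-1 coactivators on mitochondrial genes, was far more abundant and moved little, from 53.2 CPM in EV to 45.4 CPM in HSP90α-KO (-0.23, adjusted p = 0.00074) and 57.9 CPM in HSP90β-KO (0.12, adjusted p = 0.075). Parental and PUHr cells had 47.3 and 45 CPM (-0.08, adjusted p = 0.37). ESRRG had 0 reads in all 6 libraries of the resistance experiment.

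**Figure D2:**
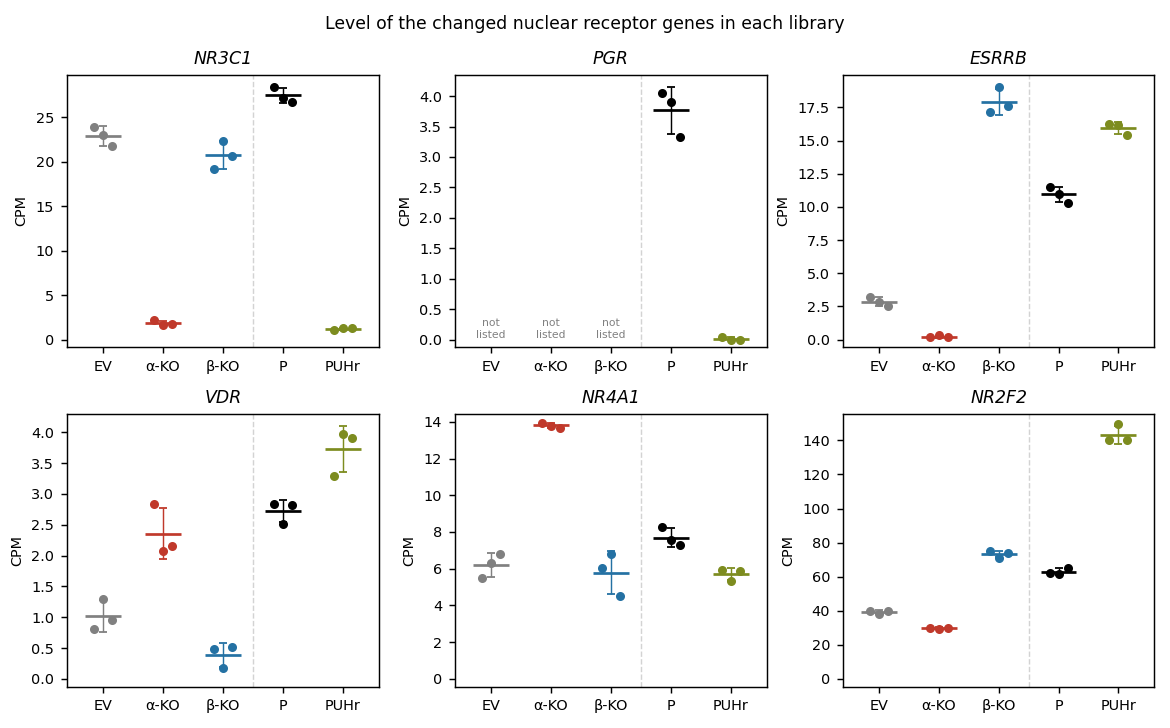
CPM of the 6 changed nuclear receptor genes in every library of EV, HSP90α-KO (α-KO), HSP90β-KO (β-KO), parental (P) and PUHr cells; lines and bars are the mean and SD of 3 libraries, and a dashed line separates tables that were normalised apart. NR3C1 is low in HSP90α-KO and PUHr, and ESRRB is lowest in HSP90α-KO and highest in HSP90β-KO.

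Among the thyroid hormone, vitamin D and lipid sensors, VDR was the gene that changed. VDR (ENSG00000111424, chr12:47841537-47943048, minus strand) encodes the vitamin D receptor. It had 0.808, 1.30 and 0.953 CPM in EV, 2.83, 2.07 and 2.16 CPM in HSP90α-KO, and 0.477, 0.171 and 0.515 CPM in HSP90β-KO, from 4 to 58 reads. The groups did not overlap, with HSP90α-KO highest and HSP90β-KO lowest. VDR reached the filter in all libraries of EV and HSP90α-KO, but not in all of HSP90β-KO. The log2 fold change was 1.15 in HSP90α-KO (SE 0.281, interval 0.57 to 1.73, adjusted p = 0.0012) and -1.29 in HSP90β-KO (SE 0.281, interval -1.87 to -0.71, adjusted p = 0.00068). The call in HSP90β-KO rested on a single library, and without HSP90β-KO replicate 2 the value was -0.90 (adjusted p = 0.0083). With 1 CPM added before the log, the values of 0.73 in HSP90α-KO and -0.54 in HSP90β-KO fell short of the fold threshold. Between the knockouts VDR differed by 2.44 (6.07-fold, adjusted p = 2.9e-08). Parental and PUHr libraries had 2.83, 2.52 and 2.81 against 3.29, 3.97 and 3.92 CPM, a difference of 0.44 (adjusted p = 0.014).

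The PPAR genes, whose products sense fatty acids and drive their oxidation, gave smaller differences that were steady over libraries. PPARD had 28.1, 26.9 and 26.3 CPM in EV, 43.5, 44.1 and 41.9 CPM in HSP90α-KO, and 35.1, 32.6 and 32.4 CPM in HSP90β-KO. The groups did not overlap, and the log2 fold changes were 0.67 (SE 0.050, adjusted p = 1.1e-11) and 0.30 (adjusted p = 3.0e-05). PPARA differed most between the knockouts, with 20.9, 18.8 and 21.0 CPM in HSP90α-KO against 12.3, 11.3 and 12.0 CPM in HSP90β-KO (0.77, adjusted p = 3.4e-10). EV lay between them at 15.5, 15.8 and 14.6 CPM (0.40 and -0.36 against EV, adjusted p = 2.2e-05 and 0.00016). In PUHr cells PPARD was level with parental cells (interval -0.11 to 0.11), and PPARA gave 0.28 (adjusted p = 0.0050). PPARG had no reads in the resistance experiment.

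Thyroid hormone receptor genes gave their larger differences in the resistant cells. THRB had 78.8, 77.0 and 78.0 CPM in parental and 112, 110 and 112 CPM in PUHr libraries, without overlap (0.52, SE 0.029, adjusted p = 1.8e-09). In the knockouts it gave -0.02 and -0.07 (adjusted p = 0.65 and 0.13). THRA gave 0.28 in PUHr (adjusted p = 0.00032), and its gene overlaps NR1D1 on the opposite strand; the library kit keeps strand, but whether the counting used it is not given in the sources used here. Of the liver X receptors, which sense oxysterols, NR1H3 gave 0.27 in HSP90α-KO (adjusted p = 0.0011) and NR1H2 gave -0.41 in PUHr (adjusted p = 4.1e-05). NR1I3, a xenobiotic sensor of liver, stayed near the filter and passed nothing (adjusted p = 0.76, 0.46 and 0.29 in HSP90α-KO, HSP90β-KO and PUHr).

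None of the 4 tested retinoid receptors changed in any comparison. RXRA, the common dimer partner, had 51.4, 54.8 and 49.4 CPM in EV, with intervals of -0.11 to 0.13 for each knockout. In the resistance experiment it had 72.0, 71.3 and 66.6 CPM in parental and 106, 109 and 109 CPM in PUHr libraries. These groups did not overlap (0.62, SE 0.035, adjusted p = 1.7e-09). RARG, a retinoic acid receptor, went the other way, from 2.28, 2.77 and 2.81 CPM to 1.85, 1.51 and 1.69 CPM, again without overlap (-0.61, SE 0.16, adjusted p = 0.0053). RARA, the receptor of myeloid differentiation therapy, gave 0.43 in HSP90α-KO (adjusted p = 1.9e-05) and 0.04 in PUHr (adjusted p = 0.57). RARB, itself a retinoid target, was too low to test, with 2, 1 and 2 reads in parental and 4, 7 and 4 in PUHr libraries.

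Clock receptors did not stand out. NR1D1 and NR1D2 encode the REV-ERB repressors of BMAL1, and RORA encodes an activator that competes with them for the same sites. RORA gave 0.40 (adjusted p = 0.031) in HSP90α-KO, and NR1D1 gave 0.29 (adjusted p = 0.046) in HSP90β-KO. None of the 3 passed in PUHr, where they ranged from 0.09 to 0.31.

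NR2F2 was the most shifted of the class 2 orphans and the highest receptor gene per length in PUHr cells. NR2F2 (ENSG00000185551, chr15:96325938-96340263, plus strand) encodes COUP-TFII, a repressor known from vessel and organ development and from fetal globin control. It had 39.9, 38.3 and 39.9 CPM in EV, 30.1, 29.0 and 29.8 CPM in HSP90α-KO, and 75, 71.2 and 73.7 CPM in HSP90β-KO. None of the 3 groups overlapped another. The log2 fold changes were -0.41 (SE 0.044, adjusted p = 9.8e-09) and 0.89 (SE 0.044, adjusted p = 5.8e-15), both under the fold threshold, and -1.30 between the knockouts (2.47-fold, adjusted p = 2.6e-19). Parental libraries had 62.0, 61.8 and 65.2 CPM, and PUHr libraries had 3492, 3577 and 3147 reads, a mean of 143 ± 5.45 CPM. That was 2.27-fold higher without overlap (1.18, SE 0.036, interval 1.11 to 1.26, adjusted p = 1.8e-12). The antisense gene NR2F2-AS1 had 197 to 324 reads in EV, 81 to 84 in HSP90α-KO, 363 to 417 in HSP90β-KO, 205 to 255 in parental and 404 to 509 in PUHr libraries, and since strand use in the counting is not given in the sources used here, reads of the pair cannot be told apart.

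The testicular receptors NR2C1 and NR2C2 were lower by small amounts in each comparison. NR2C1 gave -0.32 (adjusted p = 2.6e-07), -0.17 (adjusted p = 0.0021) and -0.26 (adjusted p = 0.00011) in HSP90α-KO, HSP90β-KO and PUHr. NR2C2 gave -0.36 (adjusted p = 1.1e-09), -0.21 (adjusted p = 2.3e-05) and -0.10 (adjusted p = 0.028). Their 2 knockout values share the EV libraries. Of 10 tested K562 markers, 3 were higher and 5 lower by adjusted p alone in HSP90α-KO, 1 and 4 in HSP90β-KO, and 4 and 5 in PUHr, beside 54.2%, 34.4% and 51.4% of all tested genes in either direction. Among them the fetal globin genes HBG1 (-0.73, 0.05 and -0.97) and HBG2 (-1.22, -0.02 and -0.66) and the embryonic HBZ (-1.04, -0.68 and -0.0033) differed from comparison to comparison, and a link to the receptors was not tested. NR2F6, a repressor in lymphocytes, passed in none of HSP90α-KO, HSP90β-KO and PUHr, and NR2F1 overlapped between parental (12, 19 and 16 reads) and PUHr cells (19, 36 and 19 reads), with adjusted p = 0.14.

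Of the remaining orphans, NR4A1 changed. NR4A1 (ENSG00000123358, chr12:52022832-52059507, plus strand) encodes NUR77, an immediate early factor induced by growth factor and antigen receptor signals. It had 5.52, 6.31 and 6.79 CPM in EV, 14, 13.8 and 13.7 CPM in HSP90α-KO, and 6.06, 6.78 and 4.51 CPM in HSP90β-KO. HSP90α-KO lay above both other groups, which overlapped. The log2 fold change was 1.15 in HSP90α-KO (SE 0.116, interval 0.91 to 1.38, adjusted p = 3.5e-09), -0.11 in HSP90β-KO (interval -0.35 to 0.12, adjusted p = 0.48) and 1.26 between the knockouts (adjusted p = 4.1e-10), and with 5 CPM added the value in HSP90α-KO was 0.75. Its relative NR4A2, NURR1, did not rise with it, at 6.51, 7.52 and 7.05 CPM in EV and 4.88, 5.80 and 5.13 CPM in HSP90α-KO (-0.41, adjusted p = 0.0013), and it was lower in HSP90α-KO than in HSP90β-KO too (-0.54, adjusted p = 4.8e-05). In PUHr cells NR4A1 gave -0.42 (adjusted p = 0.0018), from 8.24, 7.55 and 7.27 to 5.90, 5.35 and 5.87 CPM. NR6A1, germ cell nuclear factor, gave 0.10, 0.00 and 0.05 in HSP90α-KO, HSP90β-KO and PUHr, and NR5A2, an orphan of liver and gonad, gave -0.12 in PUHr (adjusted p = 0.77).

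Receptors of other tissues were at or near the detection limit. Of the 18 receptor genes not tested in the resistance experiment, 5 had 0 reads in all 6 libraries, namely ESRRG, RXRG, PPARG, NR2E1 and NR0B1, and a count of 0 allows up to 3 reads per library. The other 13 had at most 8 reads in any library, the highest being NR5A1, the steroidogenic factor of adrenal and gonad, in a parental library. NR0B2, a repressor in bile acid control, had 3, 4 and 3 against 7, 4 and 4 reads. HNF4A and HNF4G of liver and gut, NR1H4 (the bile acid receptor), NR1I2 (the pregnane receptor), RORB and NR2E3 of retina had 0 to 4 reads.

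For a rough scale between genes, levels were divided by the merged length of all annotated exons of a gene. Which transcripts the cells made was not measured, so the ranks depend on the annotation. The highest receptor in parental cells was ESRRA at 15.3 ± 0.565 CPM per kilobase (SD, n = 3). It was followed by NR2F6 at 13.9 ± 0.548, NR2C2 at 11.2 ± 0.193 and NR2F2 at 9.73 ± 0.296. ESRRA and NR2F6 also led in EV, at 17.2 ± 1.34 and 15.3 ± 0.247. NR3C1 was of middle rank, at 3.00 ± 0.0945 in parental cells and 2.49 ± 0.120 in EV, beside NR1H3 at 3.02 ± 0.106 in parental cells, from which it does not differ beyond the spread. In PUHr it was at 0.132 ± 0.0121, the same as RORA at 0.132 ± 0.00703, and in HSP90α-KO at 0.204 ± 0.0276. NR2F2 came first in PUHr at 22.1 ± 0.841, ahead of ESRRA at 14.5 ± 1.91 and NR2F6 at 14.5 ± 2.49. PGR was at 0.256 ± 0.0261 in parental cells, and ESRRB ran from 0.0371 ± 0.0137 in HSP90α-KO through 0.480 ± 0.0565 in EV to 3.02 ± 0.167 in HSP90β-KO. No test was made between genes. Several of these genes overlap genes on the opposite strand, ESRRA among them (TRMT112). Strand use in the counting is not given in the sources used here, so reads of such pairs cannot be told apart and the ranks may depend on it.

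**Figure D3:**
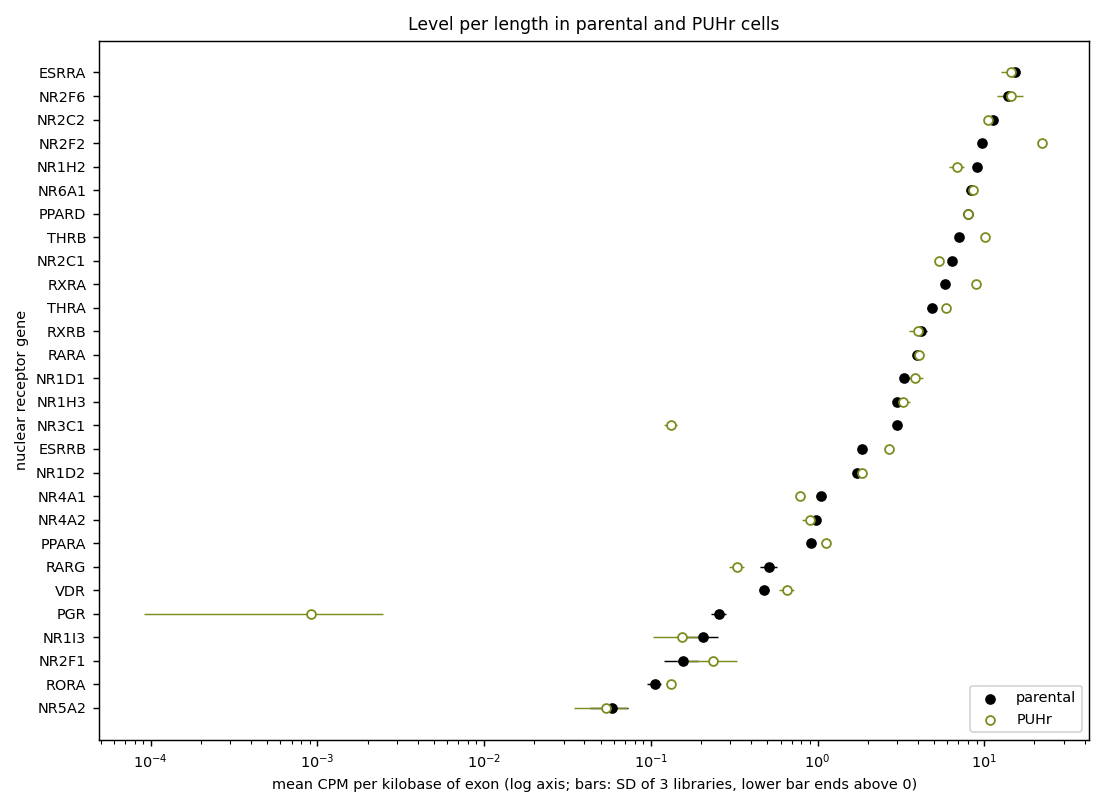
Mean CPM per kilobase of exon, on a log axis, for the 28 receptor genes tested in the resistance experiment, in parental (filled) and PUHr cells (open); bars are the SD of 3 libraries. The points of most genes nearly coincide, whereas NR3C1 and PGR lie far lower in PUHr and NR2F2 moves to the top at 22.1.

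Since the cells are clones, which can differ in copy number, the 20 nearest tested genes on each side of each changed receptor were described, without a test. Around NR3C1 the median log2 fold change of these 40 genes was -0.04 in HSP90α-KO, where 3 of them rose and 1 fell, and 0.00 in PUHr, where 3 rose and 3 fell. Copy number was not tested in the analysis described here, and a loss of a few genes would not show in such a median. Around ESRRB the median was -0.01 in HSP90α-KO, with 4 neighbours higher and 1 lower, and 0.09 in HSP90β-KO, with 1 higher and 1 lower. The adjacent gene ENSG00000280078 followed ESRRB on few reads (-1.20 in HSP90α-KO, adjusted p = 0.0027, 0.81 in HSP90β-KO, adjusted p = 0.055, and -2.01 between the knockouts, adjusted p = 6.3e-06), whereas VASH1 on the other side, which encodes an angiogenesis inhibitor, was higher in both knockouts (1.96 and 1.88). Shares of changed genes over the whole table, for reading the neighbour counts, are 5.32% higher and 5.01% lower in HSP90α-KO, 1.83% and 2.65% in HSP90β-KO, 7.14% and 5.57% between the knockouts, and 5.37% and 4.69% in PUHr. Around VDR the median was 0.15 in HSP90α-KO, with 31 of 40 above 0, 5 higher and 0 lower, -0.08 in HSP90β-KO, with 14 of 40 above 0, and 0.43 between the knockouts, with 31 of 40 above 0, 8 higher and 0 lower. AMIGO2 (1.5 in HSP90α-KO) and PCED1B-AS1 (1.52 in HSP90α-KO and -1.09 in HSP90β-KO) were among them. NR4A1 had a neighbourhood median of 0.06 in HSP90α-KO, with 3 higher and 0 lower, and of 0.16 between the knockouts, with 6 higher and 0 lower. The 3 lie side by side close to NR4A1 and are FIGNL2, ACVRL1, a TGF-beta family receptor gene (276 to 383 reads in EV and 1130 to 1291 in HSP90α-KO, 2.08), and ACVR1B (1.01). FIGNL2 had 1 to 3 reads in EV, 0 to 6 in HSP90β-KO and 18 to 19 in HSP90α-KO libraries. It passed the filter through the HSP90α-KO libraries alone, so its being higher was built into its being tested, and its fitted value of 2.57 depends on the prior count. Near PGR the median was 0.11, and 7 neighbours rose and 4 fell. SESN3, a stress response gene, was at 2.31. RAB39A, also among the higher genes, had 1 to 4 reads in parental and 35 to 43 in PUHr libraries. It passed the filter through the PUHr libraries alone, so its being higher was built into its being tested, and its fitted value of 3.39 depends on the prior count. ARHGAP42, next to PGR, fell with it (-3.42, from 114 to 157 reads in parental to 9 to 13 reads in PUHr), as did BIRC3, an inhibitor of apoptosis (-1.55), whereas BIRC2 gave 0.15. Around NR2F2 the median was 0.20 in PUHr, with 27 of 40 neighbours above 0, 3 higher and 4 lower, LINC00923 at -2.18 among them. Between the knockouts it was -0.25, with 1 higher and 8 lower, among them NR2F2-AS1 (-2.00) and IGF1R (-1.35), so more neighbours went with NR2F2 than against it there. The neighbours named here were picked out after their values were seen.

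Target genes of the receptors were described from hand-written lists by counts and medians alone. Of 11 tested glucocorticoid targets, 1 rose and 1 fell in HSP90α-KO, beside 5.32% and 5.01% of all tested genes (median -0.06 beside -0.01). By limma's adjusted p alone 4 were higher and 4 lower there, beside 27.5% and 26.6%. In HSP90β-KO 0 changed by limma, beside 4.48% of all tested genes, with 4 higher and 0 lower by adjusted p alone, beside 17.2% in each direction (median 0.06 beside 0.00). In PUHr 1 rose and 3 fell of 12, beside 5.37% and 4.69% (median -0.01 beside 0.00). By adjusted p alone 5 were higher and 5 lower in PUHr, beside 25.6% and 25.8%. The median absolute change was 0.51 in HSP90α-KO, 0.11 in HSP90β-KO and 0.46 in PUHr, beside 0.24, 0.15 and 0.21 over all tested genes. The fallen gene in both HSP90α-KO and PUHr was TSC22D3, which encodes the glucocorticoid-induced leucine zipper GILZ. It had 93.1, 95 and 94.4 CPM in EV, 28.3, 30.6 and 29.0 CPM in HSP90α-KO (-1.68, adjusted p = 1.5e-22) and 123, 121 and 122 CPM in HSP90β-KO (0.37, adjusted p = 1.7e-08). In the resistance experiment it had 18.7, 17.6 and 18.1 CPM in parental and 5.26, 6.40 and 6.50 CPM in PUHr libraries (-1.58, adjusted p = 1.5e-09). TSC22D3 thus lay low in the same 2 groups as NR3C1, and the other targets were divided. ERRFI1, a feedback inhibitor of EGFR, rose in both (1.07 and 1.02), ZBTB16 and CEBPD fell in PUHr (-1.45 and -1.17), and FKBP5, the co-chaperone whose transcript is a common readout of the receptor, gave -0.07 and -0.21. Whether NR3C1 has a part in these values was not tested, and glucocorticoid treatment was not part of the design.

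**Figure D4:**
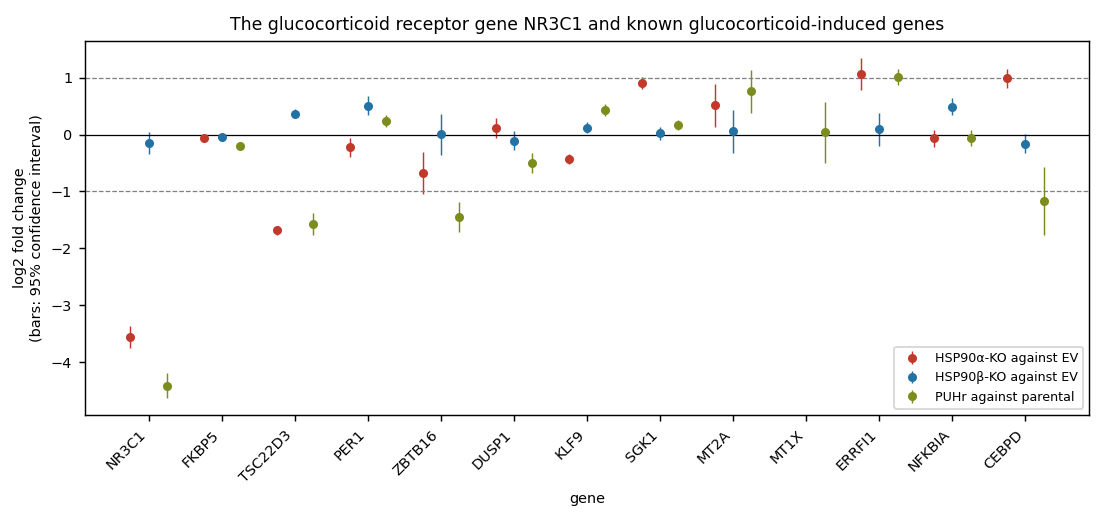
Log2 fold change with 95% confidence interval (limma) of NR3C1 and 12 glucocorticoid target genes in the 3 comparisons. TSC22D3 lies below -1 in HSP90α-KO and PUHr and above 0 in HSP90β-KO, and the other targets lie on both sides of 0.

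Of 6 retinoid targets tested in the knockouts, 1 fell in HSP90α-KO, beside 5.01% of all tested genes, and 0 changed in HSP90β-KO by limma (1 higher and 0 lower by adjusted p alone, beside 17.2% in each direction). The gene that fell was CYP26A1, which degrades retinoic acid, with 6, 11 and 6 reads in EV, 0, 3 and 0 in HSP90α-KO and 9, 12 and 19 in HSP90β-KO. EV was 6.68 times higher in CPM than HSP90α-KO (exact 95% Clopper-Pearson interval 2.02 to 34.8, counting error only), and the fitted value behind the call depends on the prior count. HSP90α-KO lay below both other groups, on few reads, and the gene passed the filter through those other groups. In PUHr 2 of 8 tested targets rose, beside 5.37% of all tested genes, with a median over the list of 0.26 beside 0.00 over all tested genes. They were STRA6, the retinol uptake receptor (8, 9 and 4 reads in parental and 34, 31 and 34 in PUHr libraries, 1.97), and CYP26B1, another enzyme that degrades retinoic acid (1.27). STRA6 passed the filter through the PUHr libraries alone, so its being higher was built into its being tested.

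PPAR targets gave 1 higher gene of 10 in each knockout and 2 higher and 1 lower of 11 in PUHr. For this and the following lists, the shares over all tested genes are 5.32% higher and 5.01% lower in HSP90α-KO, 1.83% and 2.65% in HSP90β-KO, and 5.37% and 4.69% in PUHr, and the counts of 1 or 2 genes are too small to set a list apart from them. PDK4, which turns cells from glucose to fatty acid oxidation, was the higher gene in both knockouts (1.51 and 1.37) and rose in PUHr from 46, 28 and 28 to 365, 337 and 280 reads (3.17). ANGPTL4 rose in PUHr (1.22), and CD36, a fatty acid uptake receptor, went from 63, 66 and 61 reads to 0 in all PUHr libraries, at least 21.9-fold lower at 3 reads per library. CD36 passed the filter through the parental libraries alone, so its being lower was built into its being tested. Of 8 sterol sensor targets, ABCA1, the cholesterol exporter, rose in HSP90α-KO (1.49), and 0 changed in HSP90β-KO (1 higher and 4 lower by limma's adjusted p alone, beside 17.2% in each direction) and in PUHr (2 and 2, beside 25.6% and 25.8%). Among vitamin D and thyroid hormone targets 2 were tested in the knockouts and 1 in PUHr, and 0 changed by limma (1 passed the adjusted p alone in each comparison, beside 54.2%, 34.4% and 51.4%). Clock partners gave 0 changed of 12 in either knockout (by adjusted p alone, 2 higher and 6 lower in HSP90α-KO, beside 27.5% and 26.6%, and 2 and 2 in HSP90β-KO, beside 17.2% in each direction) and 1 of 13 in PUHr, NPAS2, which had 45, 46 and 46 reads in parental and 2, 3 and 1 in PUHr libraries and likewise passed the filter through the parental libraries alone.

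Genes of the proteins that work with the receptors mostly stayed under the fold threshold. Of 31 tested coregulators, 0 changed in HSP90α-KO, HSP90β-KO or PUHr by limma's adjusted p and fold threshold, with 18 higher and 3 lower, 2 higher and 10 lower, and 5 higher and 12 lower by adjusted p alone. The shares over all tested genes were 27.5% higher and 26.6% lower, 17.2% and 17.2%, and 25.6% and 25.8%, and the share was above this for the 18 higher genes in HSP90α-KO, the 10 lower in HSP90β-KO and the 12 lower in PUHr, with no test of the list. NCOA7 differed between the knockouts (1.05). Of 20 genes for chaperones of steroid receptor complexes, HSP90AA1 was the 1 changed gene in HSP90α-KO, and 0 changed in HSP90β-KO and in PUHr. By adjusted p alone they gave 7 higher and 4 lower, 9 higher and 4 lower, and 4 higher and 8 lower. The shares over all tested genes were again 27.5% and 26.6%, 17.2% and 17.2%, and 25.6% and 25.8%. Above these shares lay the 7 higher in HSP90α-KO, both counts in HSP90β-KO (most of all the 9 higher) and the 8 lower in PUHr. No test of this list was made either.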

How the data were processed

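The 15 libraries (5 groups of 3) were poly(A)-selected stranded mRNA sequenced as single reads. The authors mapped reads to GRCh38 (hg38) by STAR, ran featureCounts for gene counts and edgeR for normalisation, and deposited log2 CPM values in 2 tables. Tool versions are not given in the sources used here. Whole reads were recovered from the log2 values (100% within 0.01 read). Rows without an identifier (30 and 114, 0.027% to 0.0363% of reads) were left out. Each table was fitted once with limma 3.58.1 (R 4.3.3) with an intensity trend on log2 CPM as deposited, two-sided, and p-values were adjusted by Benjamini-Hochberg over all tested genes. SE and intervals come from that fit, and folds of mean CPM from recovered reads. Gene positions and exon lengths come from GENCODE 44 and promoters from RefSeq (GRCh38.p14), where 41 of 46 genes matched and VDR, NR2F6, HNF4G, NR4A2 and NR0B2 did not. Figures were drawn with matplotlib 3.10.9 under Python 3.11.15.

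The members, their roles and the gene lists were chosen with earlier results of these data known. 1 item of the retinoid target list is not reported here. All members are described: steroid receptors singly, others with full values where changed in any comparison, then where the adjusted p passed with an absolute log2 fold change of at least 0.5, and the remainder by counts or reads. Of each gene list up to 4 changed genes are named, and a few more were picked after their values were seen. Alternatives covered the filter, the constant added before the log, normalisation, the variance model, voom on recovered reads, the call threshold, the replicate block and leaving out libraries. Same-numbered libraries did not deviate together (correlation -0.048 to 0.031 in the knockout and 0.0068 to 0.045 in the resistance table).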

Additional observations from a re-analysis of the deposited data

How the results depend on the processing

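The counts of changed receptor genes were 4 in HSP90α-KO, 2 in HSP90β-KO, 5 between the knockouts and 3 in PUHr, and they were the same under quantile normalisation, median centring and voom on recovered reads. Median centring moved the median of all genes by at most 0.05. With 5 CPM added before the log, 1 gene was called in HSP90α-KO, 1 in HSP90β-KO, 3 between the knockouts and 2 in PUHr, since a constant of that size shrinks the change of low genes; under it ESRRB, NR4A1 and VDR lost their calls in HSP90α-KO, and PGR lost its call in PUHr at -0.80. With 1 CPM added, or when genes averaging under 1 on the log2 CPM scale were dropped, 1 gene was called in HSP90β-KO and 3 in HSP90α-KO, with VDR lost in both; the second setting also lost VDR between the knockouts (4 genes) and PGR in PUHr (2 genes). By adjusted p alone 15, 9, 17 and 14 genes passed. Leaving out each library in turn gave 4 to 4, 1 to 2, 5 to 5 and 3 to 3 genes, and the lower count in HSP90β-KO came without replicate 2 of that group. None of the receptor values to which the alternatives were applied (members changed, or past the adjusted p with an absolute value of at least 0.5) reversed its direction; target genes, neighbours and the smaller receptor differences were not rerun. NR3C1 ranged from -3.66 to -2.02 in HSP90α-KO (highest adjusted p 2.6e-07) and from -4.49 to -2.39 in PUHr (highest adjusted p 6.1e-05).

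With the replicate number as a block the counts were 4, 2, 5 and 3, and no call changed. The numbers did not pair the libraries (correlations of -0.048 to 0.045), so the block is a setting and not part of the design.

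Depth limits the low genes: at 0.0381 to 0.0518 CPM per read, VDR, ESRRB in HSP90α-KO and PGR in PUHr rest on few reads, and the receptor genes under the filter were not tested. Floors cover counting error only, and reads without molecular identifiers are not independent molecules.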
